A study of Mus musculus with 12 samples.

Results

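The genes described here are 9 effectors of the acute phase response and of neutrophils: the serum amyloid A genes Saa1, Saa2 and Saa3, the lipocalin Lcn2, the calprotectin subunits S100a8 and S100a9, the inducible nitric oxide synthase Nos2, and the dual oxidase Duox2 with its maturation factor Duoxa2. They were chosen by symbol, and all 9 were found among the 27179 genes of the series. All 9 also passed the minimum level for testing, 0.5 TPM (a gene's share of the transcripts in a library, scaled to transcript length) in at least 5 libraries, as did 16164 genes in all. RNA was sequenced from mouse colon, cut through its full thickness at the inked spot of a diphtheria toxin injection into the muscle. Mice of the ablated group (7 libraries, genotype BAF53b-iDTR) express Cre from the BAF53b promoter and carry R26-iDTR, a toxin receptor that Cre switches on from the Rosa26 locus, so that the toxin can kill neurons. Control mice (5 libraries, genotype R26-iDTR, labelled Cre-negative) were littermates that do not express the receptor. Both groups had a laparotomy and an injection of 4 µL of toxin at 0.33 ng/µL with 10% India ink, so surgery, toxin and ink are common to both, and no uninjected colon was analysed here. The labels give no age, sex or time after injection, and do not link libraries to single mice, so the p-values reflect library-to-library spread, which may be technical.

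Acute phase proteins are made in large amounts when interleukin signals reach the liver or a barrier epithelium, and the serum amyloid A proteins are the ones that carry lipid and retinol and draw in leukocytes. Neutrophils carry S100A8 and S100A9 as a complex, calprotectin, that starves bacteria of metal ions, and lipocalin 2 does the same for iron by binding bacterial siderophores. In the gut, epithelial cells make hydrogen peroxide at their luminal face with DUOX2, which leaves the endoplasmic reticulum only with DUOXA2, and macrophages and epithelium make nitric oxide with NOS2 once they are activated. Calprotectin and lipocalin 2 are used as stool markers of intestinal inflammation.

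Several members are neighbours in the genome, and their positions bear on how well each can be measured. On mm10, chromosome 7, Saa3 (46711998 to 46715700, minus strand) lies 24.8 kb from Saa1 (46740497 to 46742980, minus strand), which lies 8.81 kb from Saa2 (46751790 to 46754313, plus strand). S100a8 (90668978 to 90670035, plus strand) and S100a9 (90692632 to 90695721, minus strand) are 22.6 kb apart on chromosome 3. Duox2 (122279247 to 122298449, minus strand) and Duoxa2 (122298900 to 122302885, plus strand) stand head to head on chromosome 2 with 450 bases between them. Lcn2 is on chromosome 2 (32384633 to 32388252, minus strand) and Nos2 on chromosome 11 (78920787 to 78960254, plus strand).

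Saa1 and Saa2 are near copies. Their coding sequences, each 369 bases long, were identical at 95.1% of positions, with 18 bases that differ, whereas Saa1 and Saa3 were identical at 74.5%. The transcripts outside the coding sequence were not compared. The stretch that holds 15 of those 18 differences is shown because a read within the coding sequence must cover a difference to be told apart. It runs from base 66 to base 245 of the coding sequence, counted from 1 at the start codon, as given by GENCODE vM21 transcripts, and capitals mark the bases that differ between the pair.
Saa1: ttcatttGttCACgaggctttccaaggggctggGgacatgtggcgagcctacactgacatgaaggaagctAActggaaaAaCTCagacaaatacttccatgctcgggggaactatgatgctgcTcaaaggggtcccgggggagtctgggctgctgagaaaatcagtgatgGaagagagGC
Saa2: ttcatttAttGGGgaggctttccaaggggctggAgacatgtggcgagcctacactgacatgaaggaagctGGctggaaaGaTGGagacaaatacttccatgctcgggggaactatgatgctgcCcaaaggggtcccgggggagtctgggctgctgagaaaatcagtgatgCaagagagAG
Each lower-case run is common to both, and all the runs shown are shorter than 50 bases. Of all 50-base stretches of the Saa2 coding sequence 14.7% occur unchanged in Saa1, none of them wholly within the part shown. How the authors' counting treated reads that match both genes is not given in the sources used here, so the level of Saa2 is uncertain.

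The promoters of the members were compared as well, since S100a8, S100a9, Saa3, Lcn2 and Nos2 will be seen to vary together. RefSeq windows on GRCm38.p6, from 250 bases before to 50 bases after the annotated start, matched 8 of the 9 members, and Nos2 was not among them. Each was searched on both strands for TTGCNNAA (C/EBP), for an NF-kB motif of 10 letters and for TTCNNNGAA (STAT). The C/EBP letters were found in 5 of the 8 windows, against 10.8% of 32851 windows of the same length, while the NF-kB letters (1.47% of windows) and the STAT letters (8.30%) were found in none of the 8. The 80 bases around each of the 5 matches are shown on the strand of the gene, with the match in capitals.
Saa1, chr7:46743119-46743198, minus strand: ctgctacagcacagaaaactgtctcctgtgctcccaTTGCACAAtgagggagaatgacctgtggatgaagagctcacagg
Saa2, chr7:46751614-46751693, plus strand: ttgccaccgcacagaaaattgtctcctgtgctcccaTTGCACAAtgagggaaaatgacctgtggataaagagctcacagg
Saa3, chr7:46715732-46715811, minus strand: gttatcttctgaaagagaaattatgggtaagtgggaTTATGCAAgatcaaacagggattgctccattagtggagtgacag
Lcn2, chr2:32387910-32387989, minus strand: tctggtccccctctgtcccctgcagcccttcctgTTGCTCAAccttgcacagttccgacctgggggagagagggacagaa
S100a9, chr3:90695892-90695971, minus strand: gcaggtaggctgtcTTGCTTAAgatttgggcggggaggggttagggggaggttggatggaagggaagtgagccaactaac
Over the full windows Saa1 and Saa2 were identical at 95.3% of aligned positions and carried the same match, at 182 and 183 bases before the start. In Saa3 the match is on the opposite strand, 99 bases before the start. The Lcn2 window falls inside a longer Lcn2 transcript of GENCODE. Other windows are offset from the GENCODE start as well. That of Duox2 (122298178 to 122298477, minus strand) lies mostly inside the GENCODE gene, which begins at 122298449. That of S100a8 (90668821 to 90669120, plus strand) reaches more than 50 bases into the GENCODE gene, which begins at 90668978. The offsets of Saa2 and Saa3 are smaller. These 5 genes are not the 5 that vary together: Saa1 and Saa2 are not of that set, S100a8 had no match and Nos2 was not searched. A match of letters is a description of the window, and windows without one say nothing about the factor.

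The depth was 13.4 to 26.9 M recovered reads per library, with ablated 1 the shallowest. Actl6b, which encodes BAF53b and whose promoter drives Cre, was at 0.971 ± 0.372 TPM in control and 0.447 ± 0.224 TPM in ablated libraries (SD, n = 5 and n = 7), a difference that did not pass limma's test (adjusted p = 0.222). The 6 enteric neuron markers fell, all 6 of them, with a median log2 fold change of -2.17. No gene passed in the lists of markers of neutrophils, macrophages, colonic epithelium, smooth muscle, fibroblasts, adipocytes, mesothelium or blood. Of all genes tested 1.43% passed, so counts of 0 in lists this short are near that share. At an unadjusted p under 0.05 (limma), 3 epithelial markers of 10 were found, beside 11.8% of all genes. These were Car1, Muc2 and Slc26a3, higher in ablated libraries with log2 fold changes of 1.27, 0.75 and 0.42. In the neutrophil and mesothelium lists 1 gene each was found, and 0 in those of macrophages, smooth muscle, fibroblasts, adipocytes and blood. Markers of each layer of the colon wall were present: the epithelial keratins Krt8 and Krt19 were at 2699 to 6479 and 3100 to 4893 TPM, the smooth muscle genes Tagln and Actg2 at 1132 to 4936 and 1294 to 6974 TPM, and the fibroblast genes Col3a1 and Dcn at 136 to 459 and 92.8 to 246 TPM. Msln and Upk3b of mesothelium reached 18.9 and 11.8 TPM, Hba-a1 and Hba-a2 of blood 28.2 and 14.7 TPM, and Cidec and Adipoq of fat 6.37 and 9.78 TPM. In whole tissue, fewer cells of a type and less RNA per cell cannot be told apart.

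The question put to the members was whether toxin-injected colon of mice with the receptor in BAF53b-Cre cells carried more or less of these transcripts than toxin-injected colon without it. None of the 9 passed the test (limma on log2(TPM + 0.5), Benjamini-Hochberg adjustment over all genes, adjusted p under 0.05), where 1.43% of all genes tested did, 0.421% higher and 1.01% lower in ablated libraries. At an unadjusted p under 0.05, 1 member of 9 was found, Saa2, against 11.8% of all genes. The control and ablated ranges overlapped for all 9 members, while 2.88% of all genes had ranges that did not. The median log2 fold change of the members was 0.13, beside 0.03 for all genes tested. Much of the description that follows is of how widely 5 members varied among libraries of the same genotype.

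**Figure D1:**
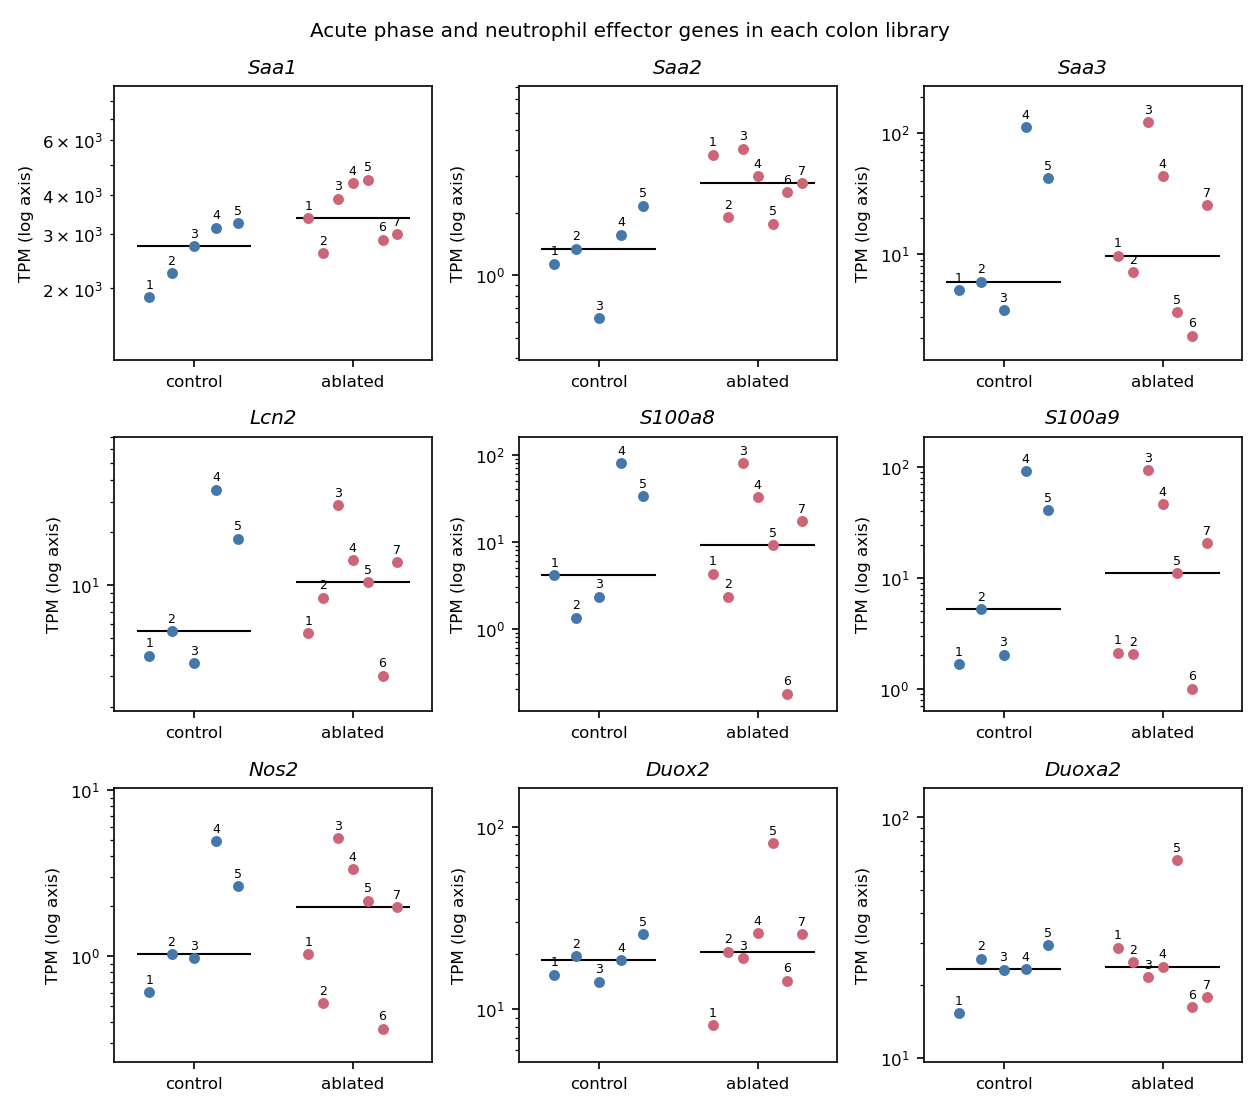
TPM of each member on a log axis in every library, with library numbers beside the points and a bar at the median of each group (5 control, 7 ablated). S100a8, S100a9, Saa3, Lcn2 and Nos2 were high in control 4 and 5 and in ablated 3, 4 and 7, and Duox2 and Duoxa2 were highest in ablated 5.

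The calprotectin genes varied most. S100a8, the smaller subunit, was at 4.14, 1.33, 2.33, 80.01 and 33.5 TPM in control 1 to 5. In ablated 1 to 7 it was at 4.28, 2.33, 80.5, 32.9, 9.11, 0.178 and 17.2 TPM. Each group thus held libraries near 80 TPM and libraries under 3 TPM, and the groups overlapped over nearly their whole range. Counted in reads, S100a8 ran from 1 in ablated 6 to 395 in ablated 3. S100a9, its partner, was at 1.66, 5.20, 2.03, 91.5 and 40.6 TPM in the controls and at 2.11, 2.04, 93.3, 46.4, 11.1, 1.0 and 20.5 TPM in the ablated libraries. The same libraries were high as for S100a8: control 4 and ablated 3 first, then control 5 and ablated 4. The log2 fold change was -0.06 for S100a8 (95% interval -2.65 to 2.53, adjusted p = 0.996, limma) and -0.03 for S100a9 (-2.65 to 2.58, adjusted p = 0.998). With the score of epithelial markers as a covariate the values were -1.68 and -1.89 (adjusted p = 0.302 and 0.199, limma), still without a call; the summed level of those markers was 12702 to 16318 TPM in control and 12529 to 21773 TPM in ablated libraries, and their part in the result was not tested. The intervals without a covariate reach to a 5.79-fold and a 5.96-fold higher level in ablated libraries, so a change of several-fold in either direction was not detectable with this spread. Among the 16164 genes tested, 6 had a larger residual SD on the log2 scale than S100a8 (2.34) and 5 a larger one than S100a9 (2.36), where the median gene had 0.32.

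Saa3, the serum amyloid A form that macrophages, fat and epithelium make locally, followed the same libraries. It was at 5.02, 5.90, 3.45, 112 and 42.6 TPM in the controls and at 9.72, 7.03, 123, 44.2, 3.29, 2.10 and 25.3 TPM in the ablated libraries. Ablated 5, which was in the middle of its group for calprotectin, was among the lowest for Saa3. For Saa3 the log2 fold change was -0.06 (-2.33 to 2.21, adjusted p = 0.994, limma).

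Lcn2 was at 3.94, 5.43, 3.57, 35.2 and 18.4 TPM in the controls and at 5.29, 8.46, 28.7, 13.9, 10.4, 3.02 and 13.5 TPM in the ablated libraries. Its highest library was control 4 and its lowest ablated 6, an 11.6-fold range. No ablated library exceeded the highest control, and 3 of 7 were above the control mean of 13.3 TPM. This gave a log2 fold change of 0.13 (-1.17 to 1.43, adjusted p = 0.971, limma).

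Nos2 was scarce throughout. It was at 0.610, 1.03, 0.974, 4.93 and 2.65 TPM in the controls and at 1.03, 0.520, 5.16, 3.37, 2.17, 0.367 and 1.97 TPM in the ablated libraries. Control 4 and ablated 3 were again the highest and ablated 6 the lowest. Nos2 had a log2 fold change of 0.00 (-1.09 to 1.10, adjusted p = 1.0, limma).

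**Figure D2:**
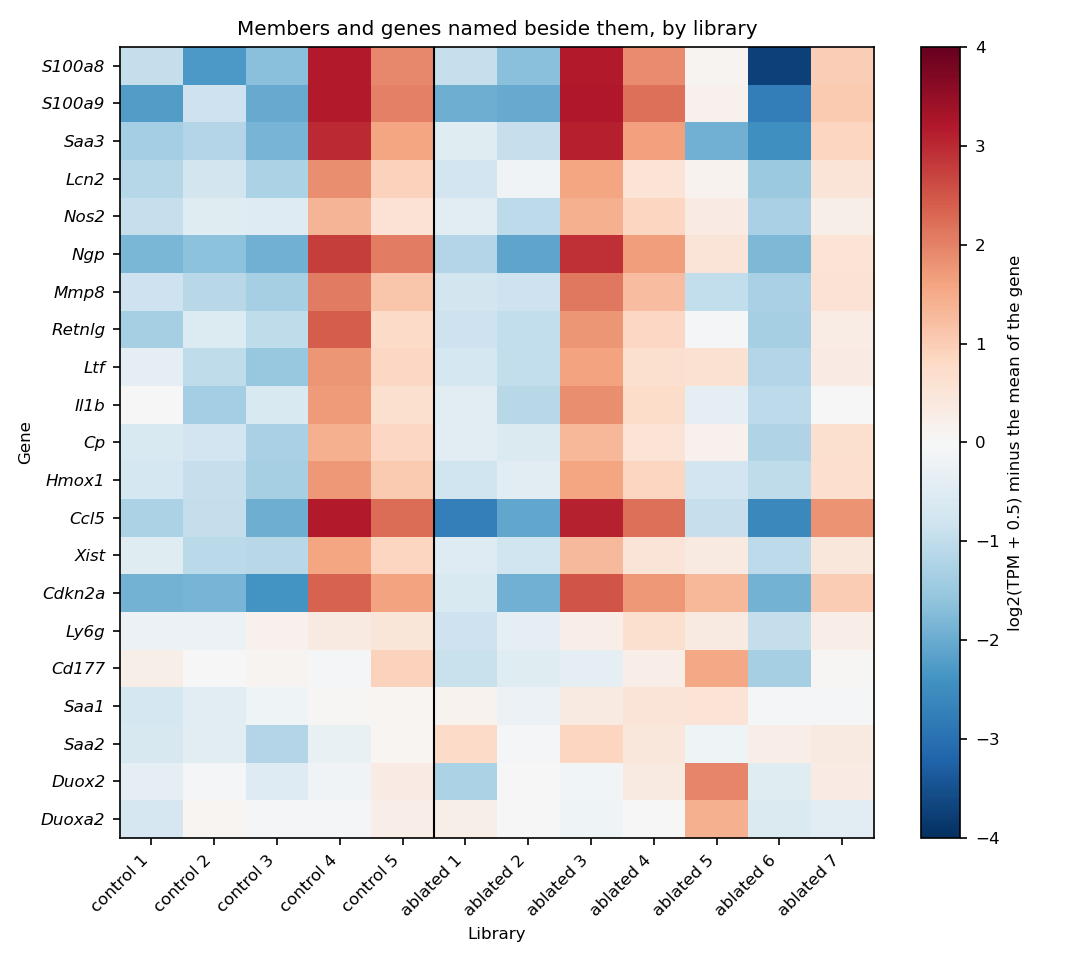
Colour shows log2(TPM + 0.5) of each gene minus its own mean, for the members and for genes named beside them (rows) in the 12 libraries (columns; the line separates control from ablated). The rows from S100a8 to Cdkn2a are above their mean in control 4 and 5 and in ablated 3 and 4, with most of them below in the other controls and in ablated 2 and 6; Ly6g and Saa1 follow in smaller steps, and Cd177, Saa2, Duox2 and Duoxa2 do not show this order.

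The epithelial hydrogen peroxide system was steadier, apart from 1 library. Duox2, the oxidase itself, was at 15.4, 19.5, 14.2, 18.6 and 25.8 TPM in the controls, and at 8.19, 20.7, 19.0, 26.2, 81.5, 14.4 and 25.7 TPM in the ablated libraries. Duoxa2, which carries it to the cell surface, was at 15.3, 25.8, 23.2, 23.4 and 29.3 TPM in the controls, and at 28.7, 24.9, 21.7, 23.9, 66.3, 16.2 and 17.9 TPM in the ablated libraries. Both were highest in ablated 5, with 4467 and 1271 reads, so depth does not limit these values. The log2 fold change was 0.27 for Duox2 (-0.62 to 1.16, adjusted p = 0.899, limma) and 0.16 for Duoxa2 (-0.47 to 0.79, adjusted p = 0.925). Without ablated 5 these differences were -0.04 and -0.07, so the sign of both rests on that library.

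Saa1 and Saa2 had the smallest residual SD of the members on the log2 scale, and the interval of Saa2 was the only one that lay wholly above 0. In fold range Saa2 was not among the narrowest, at 6.50-fold over the 12 libraries beside 4.34-fold for Duoxa2 and 2.38-fold for Saa1. Saa1, the main inducible serum amyloid A of the mouse along with Saa2, ranked 29th in mean TPM among all genes tested. It was at 1880, 2240, 2737, 3139 and 3239 TPM in the controls and at 3361, 2598, 3881, 4361, 4469, 2872 and 2983 TPM in the ablated libraries. Of the ablated libraries 6 of 7 were above the control mean and 4 of 7 above the highest control, but the lower ones lay within the control range. Saa1 had a log2 fold change of 0.41 (-0.002 to 0.82, adjusted p = 0.426, limma), and the exact permutation p over all 792 assignments of 5 and 7 libraries was 0.0593, two-sided, where 0.00126 is the smallest that design allows.

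Saa2 was at 1.14, 1.35, 0.625, 1.57 and 2.16 TPM in the controls and at 3.81, 1.90, 4.06, 3.0, 1.77, 2.52 and 2.77 TPM in the ablated libraries. All 7 ablated libraries were above the control mean of 1.37 TPM, and 5 of 7 were above the highest control. Saa2 had a log2 fold change of 0.85 (0.34 to 1.36). It did not pass limma's test over all genes: the adjusted p was 0.120, and the unadjusted value 0.00323. The exact permutation p for this gene alone, unadjusted and two-sided, was 0.00758. These values rest on 5 to 31 reads per library, 193 in all, beside 9849 to 32643 reads for Saa1. On the TPM scale Saa1 was 883 to 4381 times as abundant as Saa2, while their promoter windows, shown above, were identical at 95.3% of positions.

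**Figure D3:**
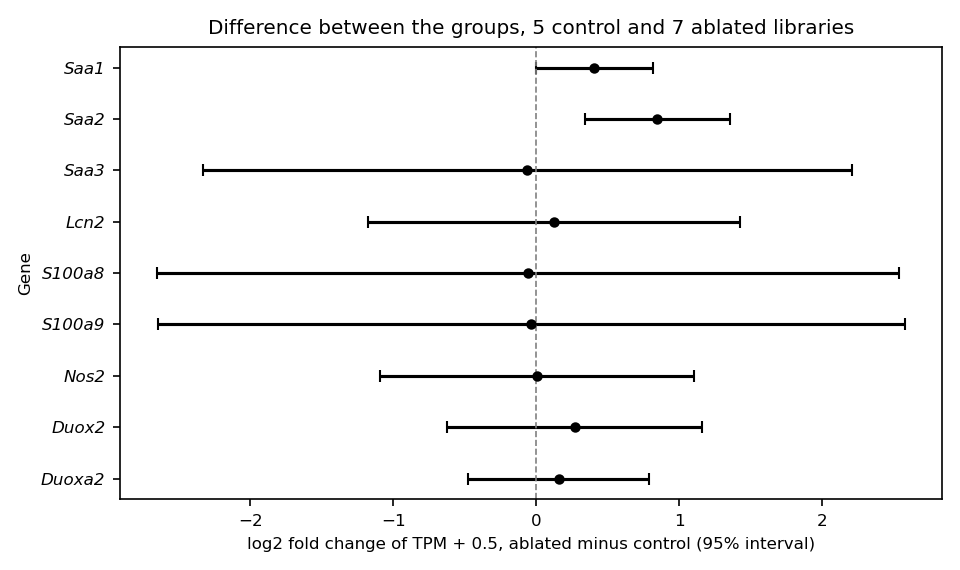
Points are limma's log2 fold changes of TPM + 0.5, ablated minus control, and bars their 95% intervals, for the 9 members. The intervals of S100a8, S100a9 and Saa3 span more than 4 log2 units, that of Saa2 alone lies above 0, and no member passed after adjustment over all genes.

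Partners were also compared within each library, which removes differences common to both genes. S100a9 over S100a8 was 0.402 to 3.90 in the controls and 0.494 to 5.62 in the ablated libraries. The 6 libraries with 9.11 TPM or more of S100a8 lay between 1.14 and 1.41, and the extreme ratios came from libraries with 7 to 34 reads of S100a9. Duoxa2 over Duox2 was 0.990 to 1.64 in the controls and 0.696 to 3.50 in the ablated libraries, with the highest ratio in ablated 1. None of the 4 ratios tested, which included Saa2 over Saa1 and Saa3 over Saa1, differed between the groups (exact permutation, two-sided, adjusted p over the 4 ratios 0.505 for Saa2 over Saa1 and 0.968 for the others).

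Within the 7 ablated libraries, 7 of the 36 pairs of members were correlated after adjustment (exact permutation of the pairings, log2(TPM + 0.5)). The share of pairs of other genes that would pass in the same way was not computed. S100a8 with S100a9 had Pearson r = 0.96 (p = 0.000595, adjusted p = 0.00952) and Spearman rho = 1 (permutation p = 0.000397, adjusted p = 0.0143). Nos2 had r = 0.97 with each calprotectin gene (adjusted permutation p = 0.00952 for both). Lcn2 followed with r = 0.95 with S100a8 (adjusted permutation p = 0.0186), 0.93 with S100a9 (0.0107) and 0.90 with Nos2 (0.0357), and rho was 0.96, 0.96 and 0.93. Saa3 passed with S100a8 alone, at r = 0.89 (adjusted permutation p = 0.0357) and rho = 0.89 (adjusted permutation p = 0.0554). When the 2 libraries farthest from the median of the first gene were left out, r was 0.98 for S100a8 with S100a9, 0.96 and 0.94 for S100a8 and S100a9 with Nos2, 0.80, 0.89 and 0.71 for Lcn2 with S100a8, S100a9 and Nos2, and 0.71 for Saa3 with S100a8, each over 5 libraries. The number of pairs that passed was 0 without ablated 3 and 0 without ablated 6, 4 without ablated 4 and 3 without ablated 7, so the count was not stable. With 6 libraries fewer pairings are possible than with 7, so the smallest possible p is larger. A pair can then fail while its r stays high. Whichever library was left out, the lowest r was 0.94 for S100a8 with S100a9, 0.95 for S100a8 with Nos2 and 0.96 for S100a9 with Nos2. Duox2 with Duoxa2 did not pass, at r = 0.67 (adjusted permutation p = 0.315) and rho = 0.29, nor did Saa1 with Saa2, at r = 0.16 (adjusted permutation p = 0.819). No correlation was computed within the 5 controls, since at least 6 libraries were required.

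**Figure D4:**
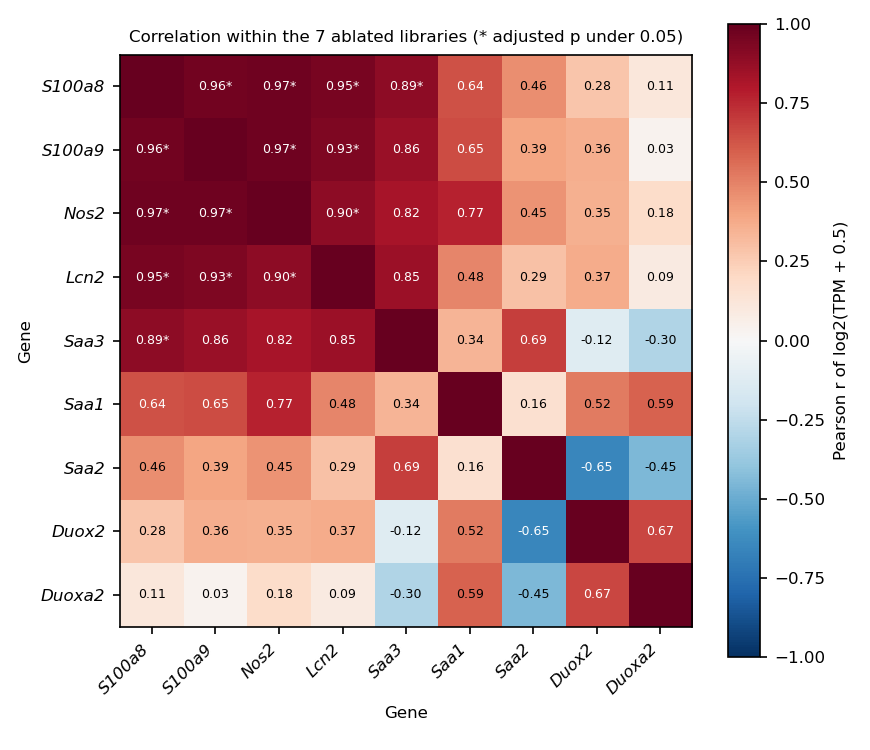
Pearson r of log2(TPM + 0.5) between members over the 7 ablated libraries, red for positive and blue for negative, with a star where the adjusted permutation p is under 0.05. The 7 starred pairs lie among S100a8, S100a9, Nos2, Lcn2 and Saa3, and no pair with Saa1, Saa2, Duox2 or Duoxa2 is starred.

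The libraries in which these 5 genes were high also stood apart in other ways. Mitochondrial transcripts took 5.20 to 9.09% of TPM in 6 libraries (control 4 and 5, ablated 3, 4, 5 and 7) and 10.2 to 25.6% in the other 6. S100a8 was at 9.11 to 80.5 TPM in the former and at 0.178 to 4.28 TPM in the latter. S100a9 (11.1 to 93.3 against 1.0 to 5.20 TPM), Lcn2 (10.4 to 35.2 against 3.02 to 8.46 TPM) and Nos2 (1.97 to 5.16 against 0.367 to 1.03 TPM) separated in the same way, whereas Saa3 did not, because of ablated 5. Both kinds of library occur in both genotypes. The first principal component, the axis of widest variation over all genes tested, held 40.1% of the variance. It was -45.9 to -12.4 in the 6 libraries of lower mitochondrial share and -0.259 to 85.2 in the other 6. Ablated 1 was highest at 85.2, followed by ablated 6 at 44.5. These libraries thus differed across the genes tested, not in the members alone. The 10% line was drawn after the members' values were seen and follows them, so the values within each side are a description and support nothing. Within the 6 libraries of lower mitochondrial share (2 control, 4 ablated) the log2 fold change was -1.01 for S100a8, -0.94 for S100a9, -1.36 for Saa3, -0.71 for Lcn2 and 0.49 for Saa2. Within the other 6 (3 control, 3 ablated) it was -0.46, -0.55, 0.17, 0.26 and 1.07 for the same genes. The part of the mitochondrial share, or of the first principal component, in the members' levels was not tested.

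**Figure D5:**
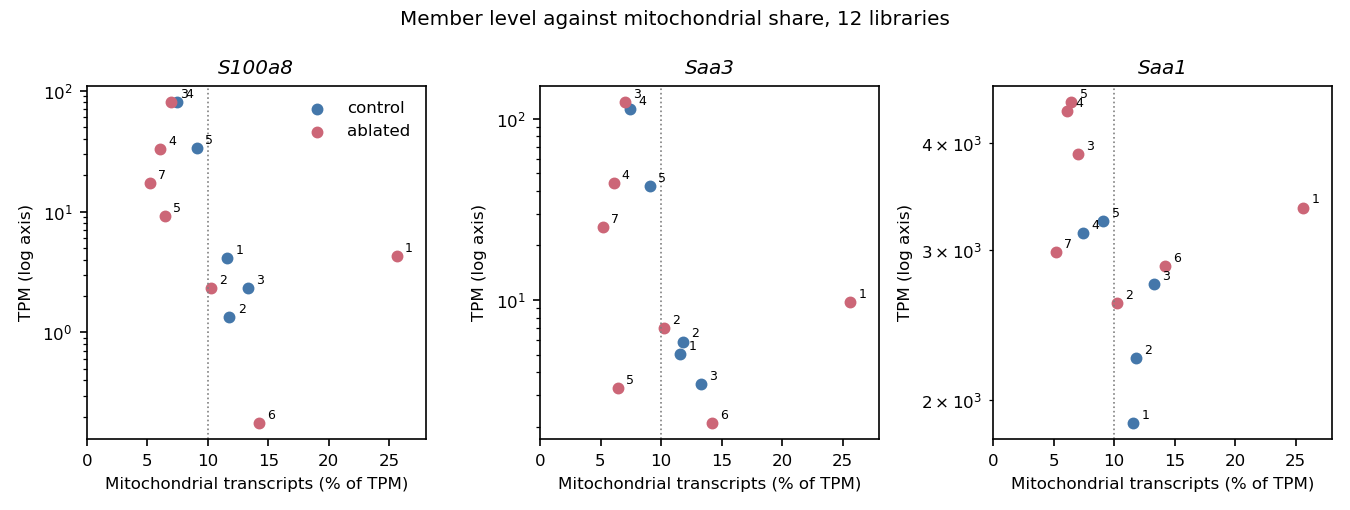
TPM of S100a8, Saa3 and Saa1 (log axes) against the mitochondrial share of TPM in each of 12 libraries, blue for control and red for ablated, with library numbers and a dotted line at 10%. All 6 libraries left of the line have more S100a8 than all 6 to its right, Saa3 follows except in ablated 5, and Saa1 varies within 2.38-fold throughout.

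Genes whose levels were most like those of each member over the 12 libraries were found by Pearson r of log2(TPM + 0.5), as a description. The libraries share depth and tissue composition, so these r values are not independent of one another. For S100a9 the closest were Ngp and Retnlg, which neutrophils express (r = 0.98 and 0.97), and the chemokine Ccl5 (0.97). For Saa3 they were Mmp8, the neutrophil collagenase (0.99), Ms4a4c (0.97) and the heme oxygenase Hmox1 (0.97). For Lcn2 they were the copper carrier Cp (0.97), the interleukin 1 decoy receptor Il1r2 (0.97) and Slc15a3 (0.96). For Nos2 they were the kallikrein Klk10 (0.97), Ngp (0.97) and the homeobox gene Irx5 (0.96). For S100a8 they were Xist, the RNA that coats the inactive X chromosome (0.96), Emb (0.96) and Cp (0.96). Among the 16164 genes tested, the number with r over 0.9 was 54 for S100a8, 50 for Lcn2, 49 for S100a9, 37 for Nos2 and 28 for Saa3. It was 9 for Duox2, 7 for Saa2, 2 for Saa1 and 0 for Duoxa2.

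The levels of these companions were low to moderate and as uneven as those of the members. Ngp was at 8.39 to 15.5 TPM in control 4 and 5 and ablated 3, and at 0 in ablated 2. Ccl5 was at 163 and 85.0 TPM in control 4 and 5 and at 153, 81.9 and 61.7 TPM in ablated 3, 4 and 7, while the other 7 libraries had 2.18 to 9.06 TPM. Xist was at 1.30 to 3.71 TPM in the 6 libraries of lower mitochondrial share and at 0.162 to 0.504 TPM in the others. Xist is a marker of female cells, yet the Y-linked Ddx3y was at 24.4 to 36.0 TPM in all 12 libraries, and Eif2s3y, Kdm5d and Uty were present in all 12 as well. Cdkn2a, a cell cycle inhibitor named here after its values were seen, was at 15.0 and 8.72 TPM in control 4 and 5, at 16.8, 9.44, 7.02 and 5.57 TPM in ablated 3, 4, 5 and 7, and at 0.0671 to 1.48 TPM in the other 6, with r = 0.93 to S100a8. Pairs of libraries of different genotype had close values of several of these genes, chosen here because they are members or Xist: control 4 and ablated 3 had 80.01 and 80.5 TPM of S100a8, 112 and 123 of Saa3 and 3.71 and 2.95 of Xist, and control 5 and ablated 4 had 33.5 and 32.9, 42.6 and 44.2, and 2.06 and 1.54. Other genes differed between control 4 and ablated 3, such as Lyz2 at 722 and 1574 TPM and Retnlg at 6.28 and 3.81 TPM. Whether RNA of a common source is present in these libraries was not tested. Whether the source of Xist and Cdkn2a RNA has a part in the members' levels was not tested.

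The genes most like the other members included none of those. For Duox2 they included Pla2g3 (r = 0.93) and Ubb-ps (0.92). For Duoxa2 they were Etnk2 (0.90), the magnesium channel Trpm6 (0.86) and the endothelin gene Edn1 (0.83). Saa1 was most like Me3 (0.93), Olfr165 (0.92) and Tubal3 (0.89), and Saa2 most like the demethylase gene Kdm4b (0.95), Bloc1s4 (0.92) and Slx4 (0.92). None of the genes named as most like Duox2, Duoxa2, Saa1 or Saa2 passed the test between the groups (limma).

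Of 16 neutrophil markers listed, 12 were tested, and none passed in either direction, with a median log2 fold change of -0.12. A count of 0 in a list of 12 is near the 1.43% of all genes tested that passed. The widest intervals of the log2 fold change (limma) were -2.08 to 2.48 for Ngp, -1.53 to 1.58 for Mmp8 and -1.57 to 1.34 for Retnlg. A several-fold change of these markers was thus not detectable. The interval of Ly6g was narrower, at -0.79 to 0.41. The summed level of the 16 markers was 429 to 731 TPM in the controls and 247 to 756 TPM in the ablated libraries, and none was at 0 in every library. That sum is nearly all Ly6g (214 to 650 TPM) and Cd177 (27.6 to 202 TPM), so it says little about the rest of the list. Over the 12 libraries the r of Ly6g and Cd177 was 0.78 and 0.39 with S100a8, and 0.61 and 0.80 with Duox2. Which cells of this tissue carry Ly6g and Cd177 RNA was not tested. The other 14 markers were at most 16.1 TPM, and their r with S100a8 was uneven. It was 0.93 to 0.95 for Ngp, Ltf, Mmp8 and Retnlg, 0.75 to 0.84 for Elane, Cxcr2, Mmp9, Mpo, Trem1, Fpr1 and Stfa2l1, and 0.45, 0.42 and 0.32 for Clec4d, Camp and Csf3r. Mpo (at most 0.847 TPM), Elane (0.781), Cxcr2 (0.604) and Trem1 (0.794) were below the minimum for testing. The markers with the smallest p were Camp, a granule peptide, with log2 fold change -0.71 (adjusted p = 0.365, limma), and Cd177, with -0.42 (adjusted p = 0.776). Of the macrophage list, 11 genes of 11 were tested and none passed, again near the 1.43% of all genes. Lyz2 and C1qa, its most abundant genes, were at 140 to 1574 and 38.8 to 108 TPM, with Lyz2 highest in ablated 3. The part of neutrophils or macrophages in the members' levels was not tested.

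The signals that recruit neutrophils and the genes around the members were equally without a call. In lists this short, 0 is near the 1.43% of all genes tested that passed. Of the chemoattractants and inducing cytokines 13 of 20 were tested and 0 passed (median log2 fold change -0.02). Il18 and Il33, epithelial and stromal alarm cytokines, had the smallest p, with log2 fold changes of 0.23 (adjusted p = 0.480, limma) and -0.39 (adjusted p = 0.606). Of the other acute phase genes and their regulators 21 of 30 were tested and 0 passed (median 0.12). The interleukin 6 receptor Il6ra had 0.53 (adjusted p = 0.409) and the lectin Reg3g, at most 2.54 TPM, had -0.80 (adjusted p = 0.419).

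Among the other oxidase, nitric oxide and arginine genes 18 of 21 were tested and 0 passed (median -0.10), beside 1.43% of all genes tested. Lpo, a peroxidase that uses hydrogen peroxide, had a log2 fold change of -0.51 (adjusted p = 0.163, limma), and Ass1, which rebuilds the arginine that NOS2 consumes, had -1.18 (adjusted p = 0.196). Nos1, the synthase of neurons, was below the minimum level in all ablated libraries and was not tested. It is named because it was the 1 gene of this list that passed when no minimum was set. Its level was 0.370, 0.851, 1.02, 1.14 and 1.45 TPM in the controls and 0.0294 to 0.246 TPM in the ablated libraries, without overlap, whereas the Nos2 ranges given above coincide.

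Of the other S100 genes and the receptors of these proteins 20 of 22 were tested and 0 passed (median 0.16), beside 1.43% of all genes tested. S100b, a glial member of the family, was nearest, at 3.19 ± 0.674 TPM in control and 1.31 ± 0.895 TPM in ablated libraries (SD, n = 5 and n = 7), a log2 fold change of -1.13 with an adjusted p of 0.0703 (limma). S100b passed when ablated 1, which had the highest mitochondrial share, was left out. S100a14, an epithelial member, had 0.40 (adjusted p = 0.226).

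The authors' deposited table, made with edgeR, lists all 9 members, and none passes there. In the authors' deposited table the log2 fold change was 1.0 for Saa2 (p-value 0.0126, FDR 0.305) and 0.37 for Saa1 (p-value 0.0496, FDR 0.528). For S100a8, S100a9, Saa3, Lcn2 and Nos2 the authors' deposited table has values of -0.29, -0.25, -0.23, -0.21 and -0.03, each with an FDR of 1.0. For Duox2 and Duoxa2 the authors' deposited table has 0.54 (FDR 0.771) and 0.26 (FDR 0.935), beside 0.27 and 0.16 in the fit above.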

How the data were processed

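RNA was measured in 12 libraries of colon, 5 control and 7 ablated, grouped by genotype. Per the labels' protocols, Trizol was used for extraction and poly(A) RNA went into directional libraries. The submitters' processing notes name bcl2fastq 2.17, HISAT, featureCounts and mm10; other versions and the treatment of shared reads are not given in the sources used here. The deposited values are TPM per gene, made by the authors. The authors' deposited table of a comparison by edgeR holds a log2 fold change, a mean log2 CPM, an F score, a p-value and an FDR per gene; its design is not stated.

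The 16164 genes that reached 0.5 TPM in 5 libraries or more entered limma (version 3.58.1, R 4.3.3; lmFit and eBayes with a trend) as log2(TPM + 0.5). Differences are ablated minus control and two-sided, with Benjamini-Hochberg adjustment over these genes and a call at an adjusted p under 0.05. The log2 scale with 0.5 added understates changes of low genes. Single genes, ratios and correlations used exact permutation in Python 3.11.15 (SciPy 1.17.1). Whole reads were recovered from the TPM for 22840 of 22842 genes above 0. The length taken for a gene was the shortest that put all its values within 0.05 of a whole read. That closeness is set by the search and is no check of it. Of the values 72.8% lay within 0.01 read. One read per kilobase is worth 0.0697 to 0.129 TPM. The fit was tested on simulated data, with normal noise of each gene's own SD and 200 genes changed. It recovered 63.5% of them at a log2 fold change of 1 (6 false calls) and 91.0% at 2 (15 false calls). The changed genes were drawn from all genes tested. Most members had a larger residual SD than the median gene, so these shares do not give the power for the members. Library numbers were checked as pairs and did not pair the groups.

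The members, lists and tests were chosen with earlier results of these data known. Besides the members, the text names Actl6b, the 2 genes with the smallest p of each pathway list, the 2 most abundant of each marker list, the 3 tested genes most like each member by r (1 gene that this rule names is not reported here), and others said to be chosen after their values were seen or shown as members of a list. Alternatives changed the added constant, the minimum, the scaling, the variance model, covariates, a replicate block and the libraries used.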

Additional observations from a re-analysis of the deposited data

Results flagged for a closer look

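Within-group gaps were examined with Dixon's ratio for each member in each group, 18 groups in all. The ratios were taken on TPM, not on log2 values. The critical value is meant for normally distributed values, so no share marked by chance can be given for these uneven genes. The ratio was above its 95% critical value in 5 of the 18 groups, all in the ablated group. Whether they would be marked on the log2 scale was not tested. In ablated 3, Saa3 at 123 TPM, S100a8 at 80.5 TPM and Lcn2 at 28.7 TPM lay far above the next library. These 3 are not separate events, since the same library was high for all of them. Control 4, with 112, 80.01 and 35.2 TPM of the same genes, was not marked. Its ratios for Saa3 and S100a8, 0.641 and 0.591, were close to those of ablated 3, 0.653 and 0.592, but the critical value is 0.710 for 5 libraries and 0.568 for 7. In ablated 5, Duox2 at 81.5 TPM and Duoxa2 at 66.3 TPM lay far above the other 6 ablated libraries. Ablated 5 also had the highest Cd177, at 202 TPM, and its Saa3 was at 3.29 TPM. The differences between the groups without ablated 5 are given with the 2 genes, and those without ablated 3 are given in the ranges over left-out libraries.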

How the results depend on the processing

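No member passed under any of the 14 alternatives, the 12 fits that each left out 1 library, or the 2 fits within a range of mitochondrial share (limma, added after the data were seen). The split by mitochondrial share followed the members' own values and supports nothing. The sign of log2 fold changes near 0 changed in several settings, and the epithelial score as covariate moved S100a9 and S100a8 most. Nos2 was -0.027 with 0.1 added (also as a permutation difference), -0.019 with median-of-ratios scaling and -0.14 with voom on recovered reads. With a weight per library, Saa3 was 0.17, S100a8 0.48 and S100a9 0.62. With the epithelial score as covariate, Lcn2 was -0.73, Nos2 -0.71, Duox2 -0.43 and Duoxa2 -0.077, and without a change of sign S100a9 was -1.89, S100a8 -1.68, Saa3 -1.09 and Saa1 0.20. With the macrophage score as covariate, Saa3 was 0.57, S100a8 0.63 and S100a9 0.55. In libraries under 10% mitochondrial transcripts Lcn2 was -0.71 and Nos2 -0.25, and in the others Saa3 was 0.17, Nos2 -0.29 and Duox2 -0.26. The cause was not tested. The S100a9 over S100a8 log2 difference was -0.0061 with 1 added. With median-of-ratios scaling, r was -0.019 for Lcn2 with Duoxa2 and -0.090 for S100a9 with Duoxa2.

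Leaving out 1 library at a time, the log2 fold change, and equally the permutation difference, ran from -0.59 to 0.67 for Saa3, -0.17 to 0.61 for Lcn2, -0.64 to 0.73 for S100a8, -0.60 to 0.75 for S100a9, -0.23 to 0.34 for Nos2, -0.041 to 0.50 for Duox2 and -0.069 to 0.26 for Duoxa2, but from 0.29 to 0.49 for Saa1 and 0.68 to 0.99 for Saa2, which kept their sign. The adjusted p of Saa2 ran from 0.0567 to 0.482 over all settings. Members with an unadjusted exact permutation p under 0.05 numbered 1 to 2; Saa1 joined without control 4, control 5 or ablated 2. Log2 ratios ran from -0.29 to 0.39 for S100a9 over S100a8, -0.37 to 0.0073 for Duoxa2 over Duox2 and -0.96 to 0.20 for Saa3 over Saa1. Pairs of members that passed numbered 0 to 10. Signs of r changed for Saa1 with Saa2 (-0.17 to 0.71), Saa2 with Lcn2 (-0.15 to 0.57), Saa2 with Duoxa2 (-0.57 to 0.25), Saa3 with Duox2 (-0.32 to 0.44), Saa3 with Duoxa2 (-0.70 to 0.20), Lcn2 with Duoxa2 (-0.31 to 0.27), S100a8 with Duoxa2 (-0.30 to 0.27), S100a9 with Duoxa2 (-0.25 to 0.17), Nos2 with Duoxa2 (-0.088 to 0.37) and Duox2 with Duoxa2 (-0.35 to 0.94). Passing S100 genes numbered 0 to 1.

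All genes passing numbered 231 in the reported fit, 349 with no minimum (1 of the oxidase list), 1092 with a weight per library, 1990 with the epithelial score, 693 with the mitochondrial share, 9 and 33 within its lower and higher range, and 128 to 328 with 1 library left out (128 without control 2, 137 without control 3). The share of higher calls was 654 of 1092 with a weight per library, beside 68 of 231.

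Same-numbered libraries had correlations of 0.01, 0.36, -0.27, 0.20 and 0.16 after removing group means, so the numbers were not taken as pairs. With a replicate block 84 genes passed and no member; Saa3 was 0.25, S100a8 0.48 and S100a9 0.30.

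Depth limits Saa2 and, in the low libraries, S100a8 and S100a9, which rest on few reads.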
